A study of Mus musculus with 8 samples.

Results

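The 37 genes described here are mouse interferon-stimulated genes (ISGs), out of 24460 genes counted. They were selected on the measured fold changes of these same libraries, with earlier results in view, as ISGs of which many were lower at 2 µM and higher at 10 µM RHPS4 than without it. Their levels and fold changes are therefore given as a description, and the calls that the fit over all genes made among them are counted beside the share of all genes called, with nothing read from them. All 37 were found in the files under their symbols, and all 37 were among the 14296 genes that passed the filter on low counts. They comprise 17 antiviral effectors, 5 genes of ISG15 conjugation and its control, 5 signalling factors, 4 genes of ADP-ribosylation or nuclear bodies, 3 guanylate-binding proteins and 3 others.

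RHPS4 is a small molecule that stabilizes G-quadruplexes, the stacked structures that guanine-rich nucleic acids can fold into. The study aimed to stabilize them in mitochondria and to learn the effect on mitochondrial DNA, gene expression and respiration. As one part of it, transcripts of the whole cell were compared at a low and a high exposure. For this, RHPS4 was added to mouse embryonic fibroblast (MEF) cells, connective tissue cells grown from mouse embryos, here wild type. The untreated group (0 µM) and the 2 µM group had 3 libraries each and the 10 µM group had 2, all from wild-type MEF cells with no other agent. The labels give 16 or 24 h as the exposure times of the study without saying which one these libraries had, and the study speaks of the MEFs as cell lines. Nothing states that the libraries of a group came from separate cultures, so p-values measure only the spread between these libraries, which may be technical. Ribosomal RNA of the nucleus was removed from total RNA and strand-specific libraries were sequenced. The authors deposited the number of uniquely mapped fragments per gene. Levels are given as CPM, a library's counts brought to a common total, scaled by the trimmed mean of M values (TMM).

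Type I interferons are secreted by cells that sense foreign nucleic acid, and they signal through the receptor IFNAR1/IFNAR2, the kinases JAK1 and TYK2, and a complex that includes STAT2 and IRF9. That complex binds the interferon-stimulated response element (ISRE), a repeat of GAAA with a short spacer, in front of many genes whose products block viruses, tag proteins with ISG15, or raise the levels of the pathway's own sensors and factors. Many of these genes keep a low level without added interferon, and fibroblasts are a classical producer of, and responder to, interferon beta.

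The 8 libraries held between 10455965 and 26688121 counts, so that the least level taken as detectable, 3 counts, equalled 0.287 CPM where the total was lowest and 0.112 CPM where it was highest. These limits hold for counting error alone, as copies made by PCR are not independent. Fibroblast markers summed to between 10056 and 12131 CPM in every library, led by Vim, Col1a2, S100a4 and Col1a1, while Lum was at 0.996 CPM on average at 0 µM. Of the 12 fibroblast markers, 1 was called between 0 and 10 µM, the receptor gene Pdgfrb, which was lower at 10 µM. Myeloid markers summed to 25.0 to 27.2 CPM at 0 µM, 20.4 to 23.2 at 2 µM and 18.6 to 20.6 at 10 µM, with Cd14 at a mean of 15.2, 11.2 and 7.81 CPM in the 3 groups. Lymphoid markers summed to 2.90 to 4.16, 2.36 to 3.8 and 3.45 to 3.72 CPM in the 3 groups, and endothelial and epithelial ones to 5.95 to 7.58, 6.72 to 7.83 and 8.43 to 8.99 CPM. Of the 10 myeloid, 9 lymphoid and 8 endothelial or epithelial markers, 8, 2 and 4 passed the filter, and 1 of these was called between 0 and 10 µM, Cd14, which was lower at 10 µM. The leukocyte marker Ptprc averaged 0.886 CPM and the macrophage marker Lyz2 0.0644 CPM at 0 µM. The part of other cells in the results was not tested. The share of counts from mitochondrial DNA fell with the dose, from 13.2 to 14.4% at 0 µM to 7.40 to 8.26% at 2 µM and 5.33 to 6.32% at 10 µM. With TMM factors from nuclear genes only, the median changes of the 37 genes were -0.41 and 1.21 on the log2 scale, against -0.42 and 1.21 with all genes. The first 0 µM library stood apart from the other 2, with a chi-square per degree of freedom of 15.4 and 20.2 against 3.23 between the others. RNA from a whole culture cannot tell fewer cells with a transcript from less of it per cell.

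Together the 37 genes took up little of each library, and their share was lowest at 2 µM and highest at 10 µM. They held 0.0802, 0.0743 and 0.0770% of the counts in the untreated libraries, 0.0657, 0.0622 and 0.0661% at 2 µM, and 0.164 and 0.173% at 10 µM. No 2 µM library reached the lowest untreated share, and both 10 µM libraries lay above the highest. The median of the genes' log2 fold changes was -0.42 at 2 µM (quartiles -0.56 and -0.30), a level 0.745 times that of untreated cells, against -0.01 over all 14296 genes tested. At 10 µM it was 1.21 (quartiles 0.71 and 1.43), or 2.31-fold higher, against 0.02 over all genes, and between 2 and 10 µM it was 1.57, or 2.97-fold. At 2 µM the genes ranged from -1.14 for Isg15 to 0.11 for Trim21, and at 10 µM from 0.15 for Ifitm3 to 1.92 for Mx1. The mean level was in the order 2, 0 and then 10 µM in 34 of the 37 genes, whose fold changes lay below 0 at 2 µM and above 0 at 10 µM, as did those of 25.6% of all genes tested. The other 3, Ifit2, Nmi and Trim21, were not lower on average at 2 µM, and the difference of Ifitm3 was too small to have a sign that held, since it turned in 10 of 17 settings of the processing.

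**Figure D1:**
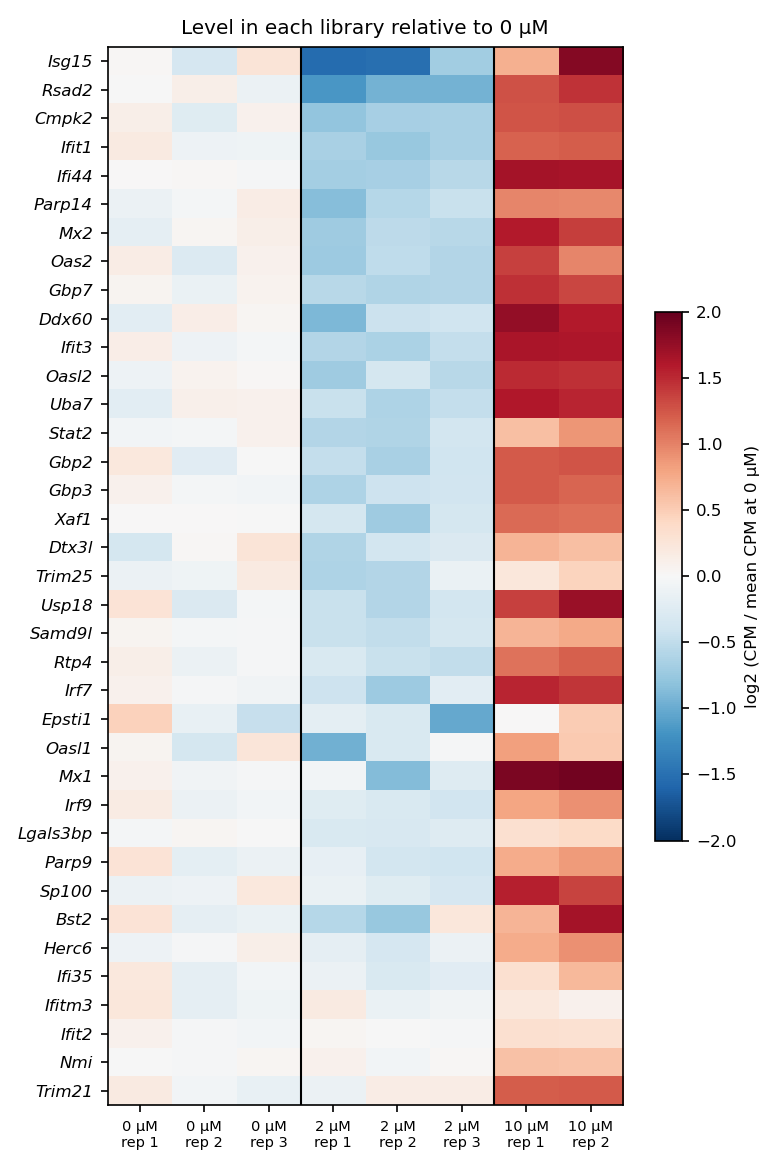
Level of each of the 37 genes (rows, ordered by the change at 2 µM) in each of the 8 libraries (columns), as the log2 ratio of its CPM to the mean of the 3 untreated libraries. The 2 µM columns are blue for most genes and the 10 µM columns red for nearly all, and the bottom rows, Ifitm3, Ifit2, Nmi and Trim21, show no blue band.

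A gene was called where its adjusted p was under 0.01 and its fold change over 1.5 (edgeR quasi-likelihood test over all genes). At 2 µM, 3 of the 37 were called lower, Rsad2, Ifit1 and Ifi44, where 0.378% of all genes tested were, and 0 were called higher (0.119% of all genes), with 0 of the 37 at an unadjusted p under 0.05 in that direction and 0 with DESeq2. The 3 calls are not stable: without the second untreated library, or without any one of the 3 libraries at 2 µM, none of the 37 was called lower, and without the third untreated library only Rsad2 was. Without the first untreated library 4 were called, Rsad2, Ifi44, Mx2 and Parp14, and DESeq2 called 5, with Cmpk2 and Parp14 added to the 3. At 10 µM, 26 of the 37 were called higher than untreated (1.95% of all genes) and 0 lower (1.14%). Against 2 µM, 32 were called higher at 10 µM (3.92%) and 0 lower (1.59%). In both comparisons 0 of the 37 were lower at an unadjusted p under 0.05 or by DESeq2. The same 3 genes called at 2 µM were also called higher at 10 µM, out of 7 such genes in all (0.049%). Without regard to calls, every 2 µM library lay below every untreated one for 26 of the 37 (12.9% of all genes), every 10 µM library lay above every untreated one for 35 (22.9%), and both held for 26 (3.73%). These shares describe genes that were chosen for the pattern and nothing further is read from them.

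Here the fall is the fitted difference at 2 µM and the rise that at 10 µM, called or not. Both share the same 3 untreated libraries, so a deviation of those libraries enters both, and they are set side by side without a correlation. The rise was larger than the fall on the log2 scale in 36 of the 37 genes, the exception being Trim25 with -0.42 and 0.33. Among the 14 genes whose fall was over 0.5 on that scale, the rise ran from 0.75 for Stat2 to 1.66 for Ifi44 and Ddx60, and for Isg15, with the largest fall, it was 1.36. Among the 4 with no fall it ran from 0.15 for Ifitm3 through 0.32 for Ifit2 and 0.58 for Nmi to 1.25 for Trim21. Usp18, Samd9l and Trim25 each changed by -0.42 at 2 µM, and at 10 µM by 1.59, 0.71 and 0.33, with standard errors (SE) of 0.15, 0.076 and 0.15. Cmpk2, Gbp2 and Trim21 differed in the other way, with 1.28, 1.26 and 1.25 at 10 µM and -0.69, -0.48 and 0.11 at 2 µM. Mx1 had the largest rise and changed by -0.34 at 2 µM. The fall was more than 2 times its SE in 27 genes and the rise in 35. The genes were chosen on these fold changes and no share over all genes was counted, so these counts carry no test. Between the treated groups, whose difference does not use the untreated libraries, 30 genes had a log2 difference over 1 and 10 had one over 2. The choice of the genes favours such differences, no share over all genes was counted, and these counts carry no test either.

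**Figure D2:**
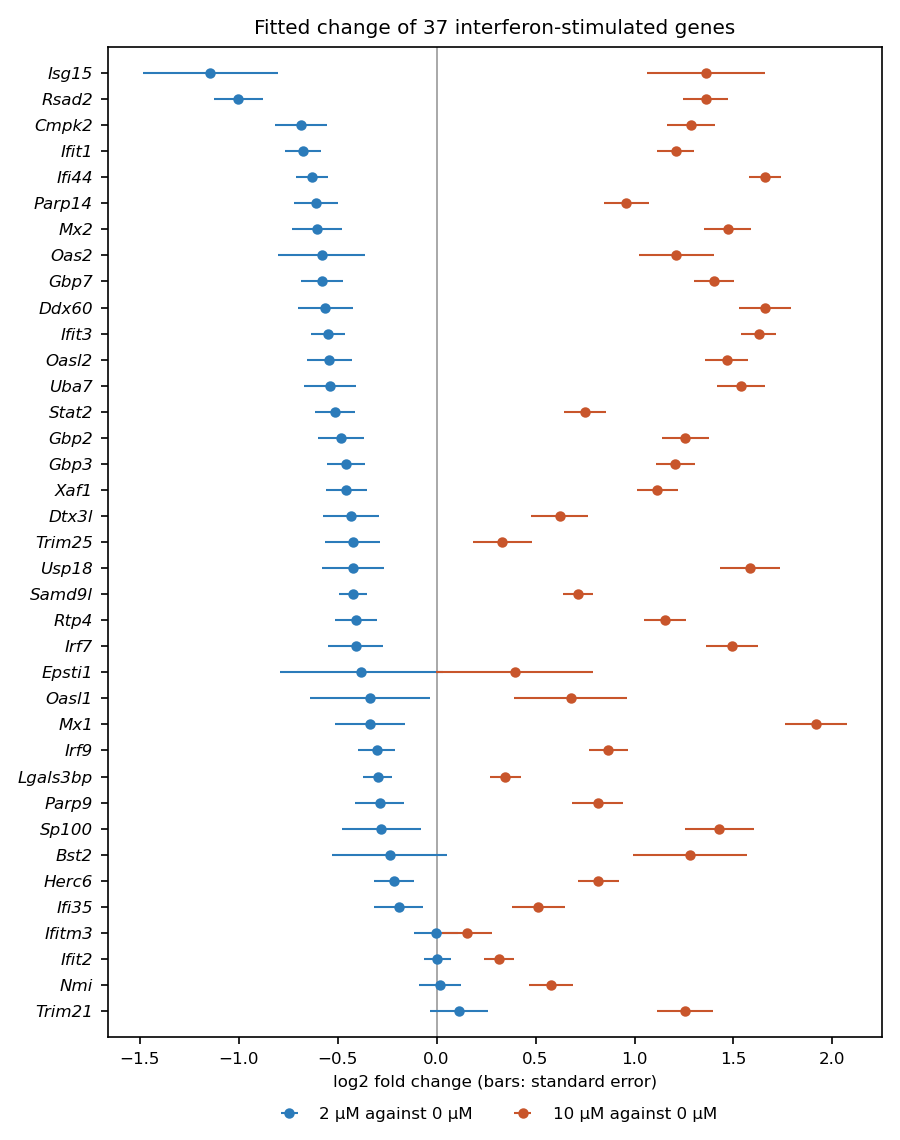
Fitted log2 fold change of each gene at 2 µM (blue) and at 10 µM (red) against the 3 untreated libraries. Points are the estimates and bars their standard errors, and genes are ordered by the change at 2 µM, from -1.14 for Isg15 to 0.11 for Trim21, while the red points lie between 0.15 and 1.92.

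The stretches of promoter sequence below, 60 bases each and 5′ to 3′ on the gene's strand, come from members of the list in which the core of the ISRE, searched as GAAANNGAAA on both strands, lay before the transcription start. They are shown because that element is what the complex with STAT2 and IRF9 binds, and the capitals mark the matches, which read TTTCNNTTTC where the element lies on the opposite strand. Sequences and starts are RefSeq's on GRCm38 (mm10). The stretches lie at chr4:156200857-156200916 on the minus strand for Isg15, chr12:26456539-26456598 on the minus strand for Rsad2, and chr19:34640769-34640828 on the plus strand for Ifit1. Those of Ifit3, Ddx60 and Stat2 are all on the plus strand, at chr19:34583364-34583423, chr8:61928025-61928084 and chr10:128270250-128270309.
Isg15: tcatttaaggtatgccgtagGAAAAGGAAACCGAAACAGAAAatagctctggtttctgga
Rsad2: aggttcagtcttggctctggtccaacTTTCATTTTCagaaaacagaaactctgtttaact
Ifit1: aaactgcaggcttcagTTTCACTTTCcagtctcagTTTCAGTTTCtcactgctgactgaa
Ifit3: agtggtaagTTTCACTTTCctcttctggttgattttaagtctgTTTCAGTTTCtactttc
Ddx60: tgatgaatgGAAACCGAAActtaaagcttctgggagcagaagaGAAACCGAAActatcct
Stat2: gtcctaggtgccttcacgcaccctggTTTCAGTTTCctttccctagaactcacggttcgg

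In Isg15 the 3 matches run into each other 57 to 78 bases before the start, whereas Ifit1 and Ifit3 each carry 2 separate matches and Rsad2 and Stat2 carry 1. RefSeq promoter windows, from 250 bases before to 50 after the start, were found for 30 of the 37 genes. Usp18, Parp9, Parp14, Mx1, Mx2, Rtp4 and Oas2 had no entry. The core was in a window of 12 of the 30 genes (40.0%), of 48 of 96 other genes of the pathway and of 398 of 10688 tested genes (3.72%). It lay before the start in 10, Isg15, Rsad2, Ifit1, Ifit3, Ddx60, Stat2, Bst2, Gbp2, Gbp3 and Gbp7, and after it in Ifitm3 and Trim21. The 12 genes with the core changed by a median of -0.53 at 2 µM and 1.27 at 10 µM, and the 10 by -0.56 and 1.32. Ifitm3 and Trim21 were among the 4 genes with no fall at 2 µM, as were Ifit2 and Nmi, whose windows lacked the core. At 10 µM Trim21 changed by 1.25. The 18 genes whose windows lacked these letters had medians of -0.39 and 0.77, and the 7 without an entry -0.42 and 1.21. The split was made after the values were known and carries no test. The core of the gamma-activated site, TTCNNNGAA, was in windows of 5 of the 30 genes (16.7%) and of 8.47% of tested genes. Of the 96 other pathway genes, 28 (29.2%) had it. A G-quadruplex pattern, 4 runs of at least 3 guanines with loops of 1 to 7 bases, was searched on either strand. It was in 3 of the 30 genes (10.0%; Ifit3, Samd9l and Irf7), 15 of the 96 (15.6%) and 31.1% of tested genes. The windows of the 30 genes were poorer in G and C than those of tested genes, with a median of 50.5% against 60.3%. A match of letters is a description and not a binding site.

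**Figure D3:**
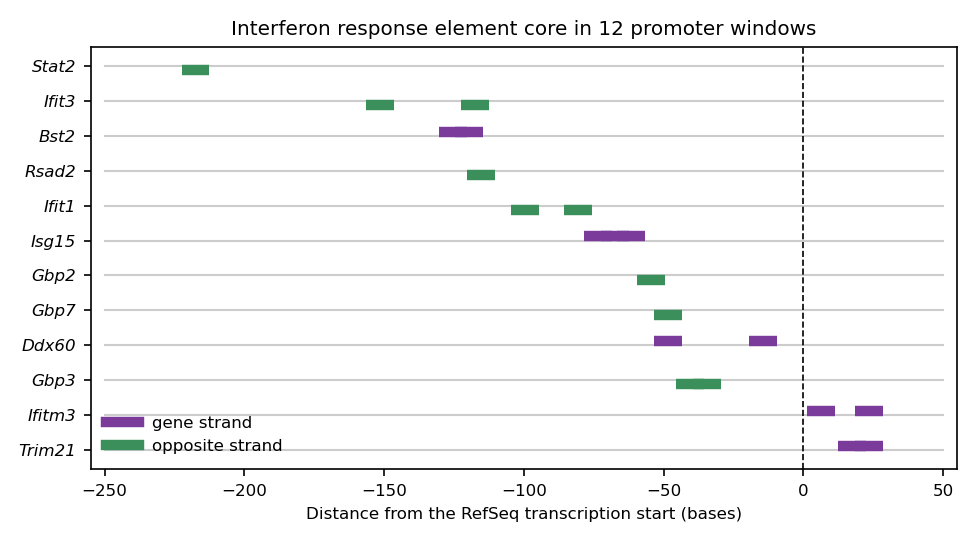
Positions of the ISRE core (GAAANNGAAA) in the promoter windows of the 12 genes that hold it, in bases from the RefSeq transcription start (dashed line), on the gene's strand (purple) or the opposite one (green). In 10 genes the core lies before the start, and in Ifitm3 and Trim21 after it.

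The 17 antiviral effectors as a group had median log2 fold changes of -0.54 at 2 µM and 1.28 at 10 µM. Of them, 12 were called higher at 10 µM, where 1.95% of all genes were. Rsad2, at chr12:26442746-26456452 (minus strand), encodes viperin, a radical SAM enzyme that makes a chain-terminating nucleotide. It stood at 10.4, 11.4 and 9.69 CPM at 0 µM, 4.67, 5.46 and 5.47 at 2 µM, against 25.4 and 28.4 at 10 µM. The 3 groups did not overlap, with 2 µM lowest and 10 µM highest. Its log2 fold changes were -1.0 (SE 0.12) and 1.36 (SE 0.11), and 2.36 between the doses. Cmpk2, a mitochondrial nucleotide kinase gene which lies 12751 bp from Rsad2 on the other strand with no gene between, stood at 9.13, 7.14 and 8.97 CPM at 0 µM, 4.85, 5.30 and 5.35 at 2 µM, against 20.1 and 20.6 at 10 µM. It kept the same order of groups, again without overlap, with changes of -0.69 (SE 0.13) and 1.28 (SE 0.12).

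The Ifit genes, whose products bind foreign RNA and hold back translation, lie in one cluster on chromosome 19. Ifit1 (chr19:34640871-34650009) stood at 57.3, 47.0 and 47.5 CPM at 0 µM, 32.3, 29.8 and 32.4 at 2 µM, against 115 and 117 at 10 µM. The groups were well apart, and its changes were -0.68 (SE 0.089) and 1.21 (SE 0.093). Ifit3 (chr19:34583531-34588731) stood at 39.1, 33.0 and 34.5 CPM at 0 µM, 23.7, 22.9 and 25.6 at 2 µM, against 109.7 and 109 at 10 µM. It had the same order, with -0.55 (SE 0.086) and 1.63 (SE 0.088). Of its 75-base stretches 41.1% also occur in another gene, chiefly Ifit3b, so that counts of uniquely mapped fragments could be split between them. Ifit2 (chr19:34550694-34576419), 7111 bp from Ifit3 with no gene between, stood at 71.8, 66.4 and 64.8 CPM at 0 µM, 69.6, 67.1 and 66.5 at 2 µM, against 84.2 and 84.0 at 10 µM. The untreated and 2 µM libraries overlapped fully, and both 10 µM libraries lay above them by a small margin. Its changes were 0.0034 (SE 0.068) at 2 µM and 0.32 (SE 0.075) at 10 µM. At 0 µM the 3 genes had similar levels per length, with 19.1, 17.2 and 20.4 CPM per kb of exon for Ifit1, Ifit2 and Ifit3, whereas at 10 µM they had 43.8, 21.4 and 62.6.

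Ifi44 (chr3:151730922-151749960, minus strand), an interferon-induced gene with antiviral activity, varied little within each group. It stood at 20.2, 20.5 and 20.0 CPM at 0 µM, 12.6, 12.8 and 13.7 at 2 µM, against 64.4 and 63.5 at 10 µM. No group overlapped another, and the changes were -0.63 (SE 0.082) and 1.66 (SE 0.081). Ddx60, a helicase that aids RNA sensing, stood at 10.4, 13.2 and 12.3 CPM at 0 µM, 6.43, 8.89 and 9.09 at 2 µM, against 40.5 and 36.1 at 10 µM, with changes of -0.56 (SE 0.14) and 1.66 (SE 0.13). Its groups did not overlap either. Samd9l, which restricts virus replication and cell growth, stood at 83.3, 77.6 and 78.7 CPM at 0 µM, 58.9, 56.9 and 62.8 at 2 µM, against 128 and 134 at 10 µM, a shallower pattern at -0.42 (SE 0.070) and 0.71 (SE 0.076). Rtp4, a receptor transporter protein that also binds viral RNA, changed by -0.41 (SE 0.11) and 1.15 (SE 0.10), from a mean of 12.6 ± 1.06 CPM (SD, n = 3) without RHPS4. Its exons share 10.5% of their 75-base stretches with Gm45338, which overlaps it on the same strand.

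Mx1 and Mx2, dynamin-like GTPases that trap incoming viruses, lie 72400 bp apart on chromosome 16. Mx1 stood at 5.5, 4.96 and 5.12 CPM at 0 µM, 5.02, 2.85 and 4.34 at 2 µM, against 19.2 and 19.8 at 10 µM. The first library at 2 µM lay within the untreated range and the other 2 below it, whereas both at 10 µM were far above. The changes were -0.34 (SE 0.17) and 1.92 (SE 0.16), the latter the largest rise of the 37. Mx2 stood at 7.78, 8.97 and 9.57 CPM at 0 µM, 5.38, 6.11 and 6.0 at 2 µM, against 26.4 and 22.9 at 10 µM. All of its 2 µM libraries were below all untreated ones, with -0.61 (SE 0.13) and 1.47 (SE 0.12). The oligoadenylate synthetase Oas2, which makes the activator of RNase L, was lowly expressed at 2.33 ± 0.350 CPM (SD, n = 3) without RHPS4 and changed by -0.58 (SE 0.22) and 1.21 (SE 0.19). Of the related genes Oasl1 and Oasl2, only the second was well measured. Oasl2 had 9.55, 10.8 and 10.5 CPM at 0 µM, 6.26, 8.07 and 6.95 at 2 µM, against 28.8 and 28.3 at 10 µM, with -0.54 (SE 0.11) and 1.47 (SE 0.11). Oasl1 had only 7 to 36 counts per library, its groups at 0 and 2 µM overlapped, and the estimates were -0.34 (SE 0.30) and 0.68 (SE 0.28).

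Bst2 encodes tetherin, which holds budding virions at the membrane. It stood at 15.6, 11.4 and 11.7 CPM at 0 µM, 8.64, 7.66 and 15 at 2 µM, against 20.8 and 40.9 at 10 µM. The third 2 µM library lay at the upper end of the untreated values, the second 10 µM library was far above the first, and the changes were -0.24 (SE 0.29) and 1.28 (SE 0.29), with the rise not called. Ifitm3, which blocks fusion of viruses in endosomes, was the most abundant of the 37 per length, at 183.6 CPM per kb of exon without RHPS4. Its levels were 146, 109.9 and 118 CPM at 0 µM, 140.3, 113 and 119 at 2 µM, against 143 and 132 at 10 µM. All groups overlapped, and the changes were -0.0021 (SE 0.11) and 0.15 (SE 0.12). Epsti1, an interferon-induced gene of macrophages and stroma, had 5 to 12 counts per library, so that its estimates of -0.38 (SE 0.41) and 0.39 (SE 0.40) were not resolved at this depth.

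**Figure D4:**
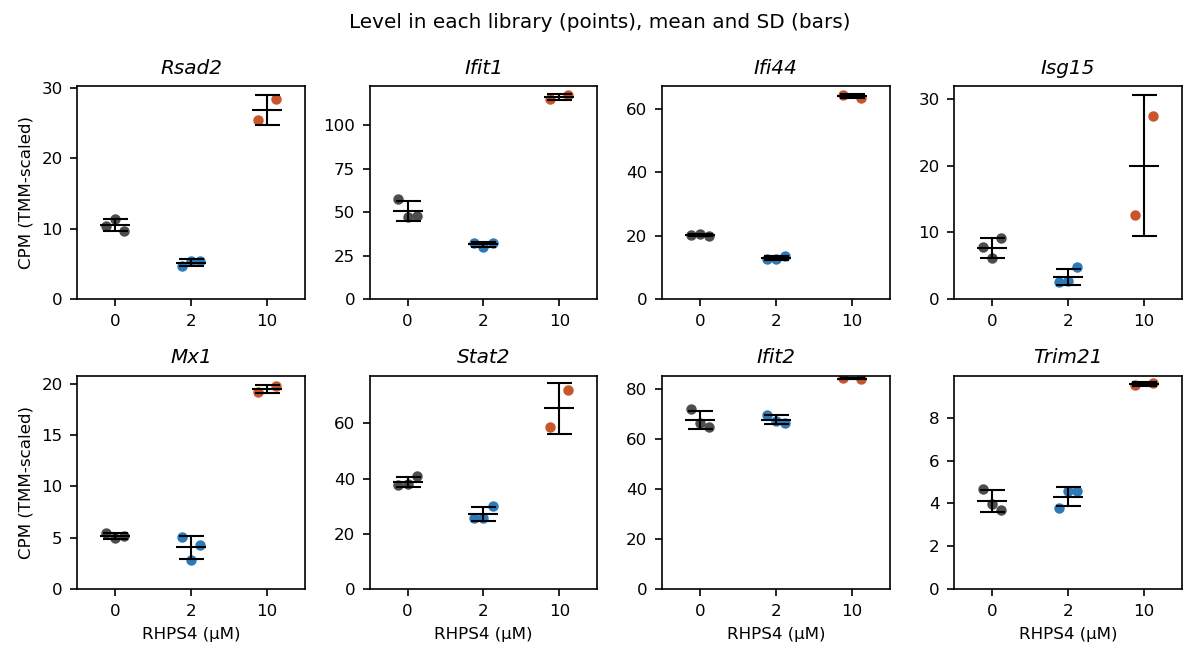
Level (TMM-scaled CPM) of 8 of the genes in each library (points) at 0, 2 and 10 µM RHPS4, with the mean and standard deviation of each group (bars), each axis starting at 0. Rsad2, Ifit1, Ifi44 and Stat2 are lowest at 2 µM in every library, Isg15 spreads widely between the 10 µM libraries, and Ifit2 and Trim21 show no fall at 2 µM.

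The 5 genes of ISG15 conjugation had medians of -0.42 at 2 µM and 1.36 at 10 µM. All 5 were below the untreated libraries in every library at 2 µM (12.9% of all genes). All 5 were above them in every library at 10 µM (22.9%), and both held for 3.73% of all genes. Isg15 (chr4:156199424-156200818, minus strand), the ubiquitin-like protein itself, stood at 7.78, 6.10 and 9.13 CPM at 0 µM, 2.64, 2.69 and 4.76 at 2 µM, against 12.6 and 27.4 at 10 µM. It had the largest fall, -1.14 (SE 0.34), but with the third 2 µM library well above the other 2, and a rise of 1.36 (SE 0.30) over 2 libraries that differed widely. The coefficient of variation at 10 µM was 52.5% for Isg15 and 46.1% for Bst2, and in both genes the third library at 2 µM and the second at 10 µM were the high ones. Both have short exons, 756 and 903 bases in all. In a comparison of libraries by exon length, the 224 genes under 1 kb were set against their group mean on the log2 scale. Their median deviation was -0.043 in the first and 0.043 in the second 10 µM library. At 2 µM it was 0.057, 0.0061 and -0.050, so it was lowest in the third library, where Isg15 and Bst2 were high. At 0 µM it was 0.165, -0.079 and -0.080, so the first untreated library had the largest deviation of all libraries. Ifitm3, with 678 bases of exon, had 143 and 132 CPM in the first and second 10 µM library. The part of transcript length in the spread of the 2 genes was not tested. Neither gene was called in the comparisons with 0 µM. Uba7, the enzyme that activates ISG15, stood at 5.09, 6.29 and 6.27 CPM at 0 µM, 4.32, 3.83 and 4.22 at 2 µM, against 17.8 and 17.0 at 10 µM. It changed by -0.54 (SE 0.13) and 1.54 (SE 0.12), with no overlap of groups. Usp18, which removes ISG15 from proteins and damps signalling at the interferon receptor, stood at 14.5, 9.76 and 11.7 CPM at 0 µM, 8.81, 7.99 and 9.33 at 2 µM, against 31.0 and 39.6 at 10 µM, with -0.42 (SE 0.16) and 1.59 (SE 0.15). At 10 µM the estimates for the ligases were smaller. Herc6, the main mouse ligase for ISG15, changed by -0.22 (SE 0.10) and 0.82 (SE 0.10), and shares 11.3% of its 75-base stretches with the overlapping Gm45193. Trim25, which modifies the RNA sensor RIG-I, stood at 22.3, 22.8 and 27.4 CPM at 0 µM, 15.8, 16.1 and 22.1 at 2 µM, against 28.4 and 33.0 at 10 µM, so that the third 2 µM library came close to the untreated ones, and it had the smallest rise of the group, 0.33 (SE 0.15).

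The 5 signalling factors had the smallest median changes of any group with 5 or more genes, -0.30 and 0.75. Stat2 (chr10:128270559-128292849), a factor of the complex that binds the ISRE, stood at 37.6, 37.9 and 41.0 CPM at 0 µM, 25.9, 25.6 and 30.1 at 2 µM, against 58.9 and 72.0 at 10 µM. Its groups did not overlap, and it changed by -0.51 (SE 0.10) and 0.75 (SE 0.11). Irf9, the DNA-binding part of that complex, stood at 38.7, 31.9 and 33.4 CPM at 0 µM, 29.2, 28.2 and 26.5 at 2 µM, against 60.1 and 65.7 at 10 µM. It followed the same order of groups with -0.30 (SE 0.092) and 0.87 (SE 0.097). Irf7, the factor that amplifies interferon production, stood at 8.20, 7.63 and 7.34 CPM at 0 µM, 5.82, 4.65 and 6.66 at 2 µM, against 22.3 and 20.8 at 10 µM. Its rise of 1.49 (SE 0.13) was the largest of the 5, beside -0.41 (SE 0.14) at 2 µM. Nmi and Ifi35 encode partners that bind each other and modulate cytokine signalling. Nmi stood at 7.37, 7.28 and 7.58 CPM at 0 µM, 7.85, 7.17 and 7.55 at 2 µM, against 11.2 and 11 at 10 µM. Its untreated and 2 µM libraries overlapped, with 0.02 (SE 0.11) and 0.58 (SE 0.11), and Ifi35 changed by -0.19 (SE 0.13) and 0.51 (SE 0.13). An antisense gene, Gm11626, covers 16.8% of the exons of Ifi35, and whether the counting used the strand is not given in the sources used here.

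Among the genes of ADP-ribosylation and nuclear bodies, Parp14, Dtx3l and Parp9 lie in that order on chromosome 16. Parp14, an ADP-ribosyltransferase, stood at 19.2, 20.1 and 22.9 CPM at 0 µM, 11.5, 14 and 15.2 at 2 µM, against 40.8 and 40.4 at 10 µM. The groups were apart, with -0.61 (SE 0.11) and 0.96 (SE 0.11). Dtx3l and Parp9 encode a ubiquitin ligase and its partner, and the genes overlap by 682 bp on opposite strands. Dtx3l changed by -0.43 (SE 0.14) and 0.62 (SE 0.15) and Parp9 by -0.29 (SE 0.12) and 0.81 (SE 0.13). In both, the untreated and 2 µM libraries overlapped, and in both the first untreated library was the farthest from the other 2, low for Dtx3l at 18.2 CPM and high for Parp9 at 31.8 CPM. Sp100, a scaffold of nuclear bodies, was low at 2.03 ± 0.269 CPM (SD, n = 3) without RHPS4 and stood at 5.58 ± 0.568 (SD, n = 2) at 10 µM, with changes of -0.28 (SE 0.20) and 1.43 (SE 0.17).

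The 3 guanylate-binding proteins, GTPases that attack the vacuoles of intracellular pathogens, lie together on chromosome 3 and moved by similar amounts, with changes from -0.58 to -0.46 at 2 µM and from 1.21 to 1.40 at 10 µM. Gbp7 stood at 11.3, 9.96 and 11.5 CPM at 0 µM, 7.40, 7.17 and 7.31 at 2 µM, against 29.9 and 27.6 at 10 µM. Gbp2 stood at 29.2, 21.4 and 25.0 CPM at 0 µM, 18.2, 16.1 and 19.1 at 2 µM, against 58.9 and 60.4 at 10 µM. Gbp3 stood at 17.7, 16.3 and 16.0 CPM at 0 µM, 10.8, 12.5 and 12.8 at 2 µM, against 39.2 and 37.3 at 10 µM. In each the 2 µM libraries were all below and the 10 µM libraries all above the untreated ones, as in 3.73% of all genes. All 3 genes were called higher at 10 µM (1.95% of all genes). Of the 75-base stretches of Gbp7, 11.3% also lie in Gm43802, which overlaps it.

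The other 3 genes have unrelated roles. Trim21, a ligase that binds antibodies on viruses inside the cell, stood at 4.67, 3.96 and 3.69 CPM at 0 µM, 3.79, 4.57 and 4.58 at 2 µM, against 9.52 and 9.64 at 10 µM. The untreated and 2 µM values overlapped, and the 10 µM values were well above both. Its changes were 0.11 (SE 0.15) and 1.25 (SE 0.14). Xaf1, which promotes apoptosis, stood at 18.8, 18.7 and 18.5 CPM at 0 µM, 14.6, 11.4 and 14.6 at 2 µM, against 40.7 and 40.1 at 10 µM. It had no overlap of groups and changed by -0.46 (SE 0.10) and 1.12 (SE 0.10). Lgals3bp, a secreted glycoprotein that binds galectins, stood at 36.4, 38.2 and 37.3 CPM at 0 µM, 30.1, 29.8 and 31.0 at 2 µM, against 46.3 and 48.7 at 10 µM. Its groups were apart as well, but both changes were small, -0.30 (SE 0.072) and 0.35 (SE 0.078).

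Across the 8 libraries, most of the 37 genes followed the mean profile of the other 36 closely, with Pearson's r up to 0.998 for Ifit3. The lowest were Ifitm3 at 0.45, Epsti1 at 0.611 and Oasl1 at 0.832. Since the genes were chosen for the pattern and the 8 points fall into 3 doses, r is given as a description of likeness only. Among tested genes outside the list, the 10 with the highest r to the mean profile were Lgals8 (0.997), Phf11d (0.996), Lpar4, Irgm2 and Ifit3b (0.995 each), Mtm1 (0.994), Trim30a (0.993), Arhgef10 (0.992), and Nupr1 and 9030624J02Rik (0.991 each). Of these, Phf11d, Irgm2, Ifit3b and Trim30a are ISGs. The sizes differed: Mtm1 changed by -0.37 at 2 µM and 1.36 at 10 µM, whereas Arhgef10 changed by -0.06 and 0.16.

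The rest of the pathway was described from lists of genes that are not among the 37. The 21 interferon genes were at the edge of detection, as none passed the filter. The highest count in any library was 9, for Ifne, and the interferon beta gene Ifnb1 never exceeded 1 count. Summed over the 21 genes, the level was 1.56 to 1.91 CPM at 0 µM, 1.15 to 1.72 at 2 µM and 2.23 to 2.38 at 10 µM, so a change of any single interferon gene was not detectable at this depth. Of the 6 receptor genes 5 were tested, and 0 were called in any comparison by edgeR or DESeq2, with 1 lower at 2 µM and 1 in each direction at 10 µM, and 3 higher and 1 lower between the doses, at an unadjusted p under 0.05. Ifnar1 had changes of -0.24 (adjusted p = 0.087) and -0.05, and Ifnar2 of -0.19 and 0.19. Among the 11 kinases, STATs, IRFs and suppressors tested, none was called at 2 µM by edgeR or DESeq2, with 3 lower at an unadjusted p under 0.05. Tyk2 was called between the doses only, at 0.61 (adjusted p = 0.0058), a call lost with DESeq2 and without any one of 6 of the libraries.

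Of the 12 sensors of foreign RNA and DNA, edgeR called 2 higher at 10 µM than untreated (1.95% of all genes) and 7 higher than at 2 µM (3.92%). It called 0 lower at either dose, and DESeq2 called 3, 5 and 0. At an unadjusted p under 0.05 (edgeR), 6 sensors were lower and 1 higher at 2 µM, and 1 was lower and 8 higher at 10 µM. Between the doses, 8 were higher and 2 lower at that limit. Ddx58, which encodes RIG-I, stood at 94.5, 82.4 and 86.8 CPM at 0 µM, 73.8, 69.5 and 66.9 at 2 µM, against 150.5 and 147 at 10 µM and rose at 10 µM by 0.76 (SE 0.080, adjusted p = 1.4e-04). Its 2 µM libraries lay below the untreated ones, with -0.33 (adjusted p = 0.037, not called). Dhx58, the regulator of RIG-I known as LGP2, rose by 0.96 (SE 0.14, adjusted p = 0.0015), a call lost without the second untreated or the second 10 µM library. Ifih1, Tlr3, Zbp1, Eif2ak2 and Ikbke were called between the doses only, with 1.46, 0.85, 1.71, 0.60 and 0.69, and each of these calls was lost without at least 1 library.

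Of 66 other ISGs tested, edgeR called 1 lower at 2 µM, the chemokine gene Cxcl10. It called 29 higher at 10 µM and 38 higher at 10 than at 2 µM, with 0 in the opposite directions. Over all genes tested, 0.378%, 1.95% and 3.92% were called in these 3 ways. DESeq2 called 3, 24, 35 and 0 of the 66. At an unadjusted p under 0.05, 27 were lower and 0 higher at 2 µM, and 50 were higher and 1 lower at 10 µM. Their median changes were -0.26 and 0.79, against -0.42 and 1.21 for the 37. Of the 66, 58 lay below 0 at 2 µM and 61 above 0 at 10 µM. Over all genes tested, 51.8% lay below 0 at 2 µM. At 10 µM 47.9% of them lay below 0, the opposite direction to the 61. This list too was written with earlier results known. Cxcl10 stood at 19.7, 19.1 and 20.5 CPM at 0 µM, 13.6, 10.4 and 12.5 at 2 µM, against 39.9 and 36.1 at 10 µM. Its groups did not overlap, and its changes were -0.70 (SE 0.11, adjusted p = 0.0065) and 0.94 (SE 0.11, adjusted p = 2.4e-04), although the call at 2 µM was lost with only the 2 groups compared and when any one library other than the first untreated one was left out. Among the called rises were those of the immunity-related GTPases Iigp1, at 1.78 (SE 0.13, adjusted p = 9.7e-06), and Irgm2, at 1.47 (SE 0.15, adjusted p = 1.0e-04), of Ifit3b, at 1.52 (SE 0.11, adjusted p = 9.7e-06), and of Gbp6, at 1.40 (SE 0.12, adjusted p = 3.3e-05). Ifit3b carries the reservation given for Ifit3. Gbp9, Parp10, Phf11d, Tor3a, Igtp, Irgm1, Trim12c and Trim30a were also called higher at 10 µM than untreated, with changes from 0.83 for Irgm1 to 1.38 for Phf11d. So were Apol9a, Apol9b, Gbp4, Helz2, Ifi203, Ifi27l2a, Ifi47, Ifit1bl2, Mndal, Oas1a, Oas1b, Oas1g, Oas3, Slfn2, Trim30d and Trim34a, with changes from 0.59 for Ifi203 to 1.43 for Trim34a, although each of these 16 lost a call under at least 1 alternative. Called only between the doses were Ifi205, Ifi27, Nlrc5, Parp12, Phf11b, Slfn8, Trafd1, Trim14 and Ube2l6, with differences from 0.67 for Parp12 to 2.13 for Phf11b, and of these Trafd1 alone kept the call under every alternative run. Many of these genes belong to families of close copies, between which counts of uniquely mapped fragments could be split. Together, of the 94 tested pathway genes outside the list, 47 were called in at least 1 comparison. All 47 were called higher at 10 than at 2 µM, as were 3.92% of all genes. Of the 94, every 10 µM library lay above every untreated one for 65 (22.9% of all genes) and every 2 µM library below for 50 (12.9%). As the lists were written with earlier results known, these counts are a description.

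**Figure D5:**
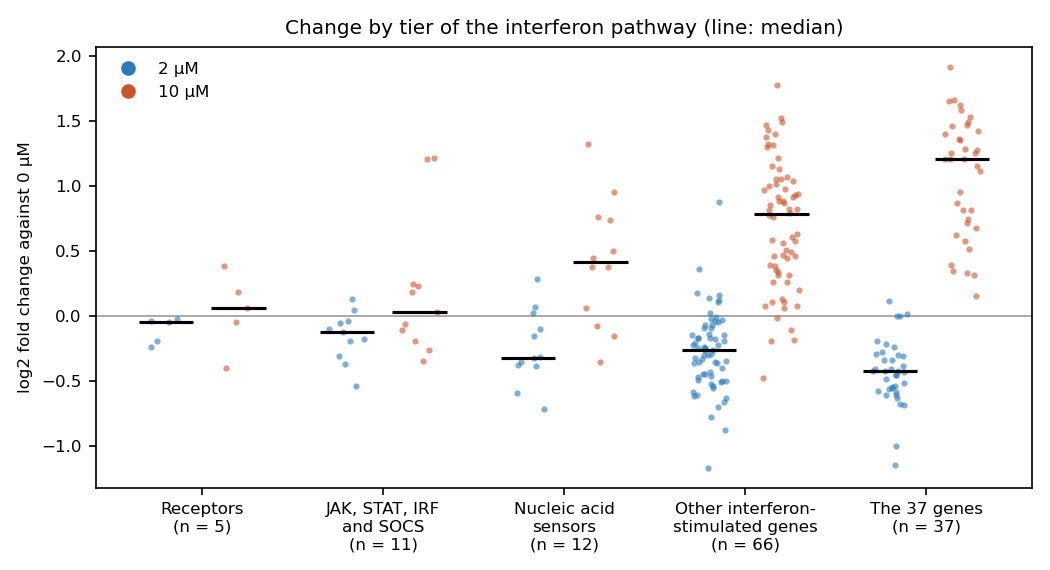
Log2 fold change against 0 µM at 2 µM (blue) and 10 µM (red) for the tested genes of each tier of the interferon pathway, 1 point per gene, with the median as a line. The medians at 10 µM are near 0 for receptors and for the JAK, STAT, IRF and SOCS genes and 0.79 and 1.21 for the other ISGs and the 37 genes. The 37 were chosen for their values.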

How the data were processed

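RNA-Seq was done on 8 libraries of MEF cells at 0 µM (3 libraries), 2 µM (3) and 10 µM (2) RHPS4, grouped by the treatment label of each sample. The authors trimmed the reads, aligned them to mm10 with STAR (2.5.2a per the submitters' processing notes) and deposited counts of uniquely mapped fragments per gene (featureCounts), whole numbers without normalization. The gene annotation and strand setting of the counting are not given in the sources used here.

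All counts were fitted together in R 4.3.3 with edgeR 4.0.16 (filterByExpr, TMM, glmQLFit and glmQLFTest, dose as the only factor, Benjamini-Hochberg adjustment over 14296 genes). Calls needed a fold change over 1.5 and an adjusted p under 0.01. Standard errors are the absolute log2 fold change over the root of the F statistic. The procedure was tested on simulated counts. Library totals of 10455965 to 26688121 set the precision, with 3 counts as the floor.

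The 37 genes and the lists of other pathway genes and markers were chosen with earlier results of these data known. Genes named are the 37, pathway genes called in any comparison, the interferon and receptor genes, the 10 tested genes outside the 37 whose log2 CPM over the 8 libraries had the highest Pearson's r with the mean of the standardized profiles of the 37, and the markers. Positions, exon lengths and stretches of 75 bases shared between genes came from the GENCODE annotation of GRCm38, and promoter windows from RefSeq (GRCm38), read with Python 3.11.15. The annotation used by the authors may differ. Alternatives were DESeq2 1.42.0, RLE normalization, TMM factors from nuclear genes, library totals only, leaving out the low-count filter or asking for 10 counts in all libraries, dropping the fold threshold, fitting only both groups compared, a block for the replicate number, and omitting 1 library at a time. The values of 1 gene of the lists are not reported here.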

Additional observations from a re-analysis of the deposited data

How the results depend on the processing

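The medians of the 37 genes kept their direction in all 3 comparisons under every alternative run. From 23 to 31 of them were called higher at 10 µM than at 0 µM and from 28 to 33 higher than at 2 µM, and from 32 to 58 other pathway genes were called. The count called lower at 2 µM, and of those also called higher at 10 µM, was 3 and became 5 with DESeq2, and ran from 0 to 4 with 1 library left out. With 1 library left out, the median ran from -0.53 to -0.38 at 2 µM, from 1.10 to 1.24 at 10 µM and from 1.54 to 1.67 between the doses, 23 to 27 and 28 to 32 of the genes were called higher, 32 to 46 other pathway genes were called, 26 to 30 genes had every 2 µM library below the untreated ones, 35 to 37 every 10 µM library above them, and 26 to 30 both. The last 3 ranges are no check, since leaving out a library under an unchanged scaling can only keep or raise such counts. Where 1 library at 10 µM was left, it was assumed to vary like the other groups. Scaling by library totals only gave medians of -0.35, 1.42 and 1.71, while the median of all genes moved to 0.07, 0.23 and 0.16, and the share of calls that were higher went from 23.9 to 39.4% at 2 µM, from 63.1 to 92.6% at 10 µM and from 71.2 to 91.7% between the doses. With at least 10 counts in every library, which left 35 of the 37 genes, the median between the doses was 1.67. Over all genes, the 163 calls lower at 10 µM than untreated became 285 without a filter, 269 with DESeq2, 68 with library totals, 103 with only the groups compared, 351 with no minimum fold change and 89 to 347 with 1 library left out, the 279 higher became 846 with library totals and 146 to 286 with 1 library left out, and the 54 lower at 2 µM became 81 without a filter, 91 with DESeq2, 116 without the first untreated library, 16 and 12 without the second and the third, and 17, 4 and 23 without the first, the second and the third at 2 µM. The 17 higher at 2 µM became 26 with library totals, 29 with no minimum fold change, 11 with the replicate block and 2 to 28 with 1 library left out. Between the doses, the 227 lower became 363 without a filter, 350 with DESeq2, 84 with library totals, 734 with no minimum fold change and 160 to 335 with 1 library left out, and the 561 higher became 923 with library totals and 276 to 551 with 1 library left out. The cause of these shifts was not tested.

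The main fit did not pair the libraries by the replicate numbers in the labels, and whether these numbers mark pairs is not known. Deviations from the group means correlated at 0.199, 0.0845 and 0.161 between same-numbered libraries at 0 and 2 µM. Between differently numbered libraries of these groups the values were lower, from -0.154 to 0.0584. Same-numbered libraries at 0 and 10 µM had -0.145 and -0.105. Those values cannot decide the question, since the deviations of 2 libraries from their mean mirror each other. With the replicate block the median between the doses was 1.66, and 3 of the 37 were called lower at 2 µM, 28 higher at 10 µM than untreated and 31 higher than at 2 µM. Of all 14296 genes tested, 43, 198 and 482 were called in these ways. Counts of genes whose groups do not overlap were recomputed for the scalings and the left-out libraries only. Depth limits Epsti1 and Oasl1, and the 10 µM group has 2 libraries.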

Other observations

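Among the called pathway genes outside the 37, those that kept every call under all alternatives run included Ddx58, Ifit3b, Iigp1, Gbp6, Gbp9, Phf11d, Parp10, Tor3a, Irgm1, Irgm2, Igtp, Trim12c, Trim30a and Trafd1. Of these, Gbp9, a guanylate-binding protein gene, stood at 38.3, 37.1 and 41.7 CPM at 0 µM, 29.3, 27.9 and 26.5 at 2 µM, against 71.3 and 70.1 at 10 µM, with log2 fold changes of -0.49 (SE 0.079, adjusted p = 0.0087) at 2 µM, where its fold change stayed under 1.5, and 0.85 (SE 0.083, adjusted p = 7.7e-05) at 10 µM (edgeR). Parp10, an ADP-ribosyltransferase gene, had -0.17 (SE 0.093, adjusted p = 0.33) and 0.98 (SE 0.094, adjusted p = 6.9e-05).

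The genes in this paragraph were chosen after their values were seen. Ccl5, a chemokine gene that interferon induces, stood at 7.37, 5.85 and 7.46 CPM at 0 µM, 3.61, 3.26 and 4.22 at 2 µM, against 4.70 and 5.18 at 10 µM. All treated libraries lay below all untreated ones, with log2 fold changes of -0.87 (SE 0.16, adjusted p = 0.015) at 2 µM and -0.48 (SE 0.17, adjusted p = 0.082) at 10 µM, neither of which was called by edgeR. Mb21d1, which encodes the DNA sensor cGAS, stood at 59.6, 61.9 and 61.7 CPM at 0 µM, 74.0, 72.6 and 76.9 at 2 µM, against 57.9 and 57.9 at 10 µM. Its 2 µM libraries were above and its 10 µM libraries below all untreated ones, with 0.29 (SE 0.064, adjusted p = 0.036) and -0.08 (SE 0.072, adjusted p = 0.51), again not called. Tmem173, which encodes the adaptor STING, had -0.39 (SE 0.12, adjusted p = 0.095) and -0.35 (SE 0.13, adjusted p = 0.1). Stat3, a factor of cytokine signalling outside the ISRE complex, stood at 113, 119.7 and 119 CPM at 0 µM, 82.7, 81.0 and 79.1 at 2 µM, against 88.2 and 96.3 at 10 µM, lower in every treated library than in any untreated one, with -0.54 (SE 0.067, adjusted p = 0.0023) and -0.35 (SE 0.075, adjusted p = 0.012), both under the fold threshold.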
